A study of Homo sapiens with 4 samples.

Results

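The histone genes of the HIST clusters were followed in SKOV3, a human ovarian cancer cell line, cultured with or without 20(S)-Rg3, a saponin of ginseng. A gene was a member if its name in the count table began with HIST1H, HIST2H, HIST3H or HIST4H and did not end as a pseudogene name does (P or PS with optional digits). This gave 75 of the 40205 genes in the table, of which 6 were H1, 17 H2A, 23 H2B, 14 H3 and 15 H4 genes. Another 14 rows with pseudogene names were left out and held between 0 and 19 counts in any library. The control group had 2 libraries of SKOV3 cells labelled as control (NC), and the Rg3 group had 2 libraries of SKOV3 cells kept for 24 h with 20(S)-Rg3 at 80 µg/mL. All cells were grown in RPMI medium with fetal bovine serum, and all libraries came from total RNA after depletion of ribosomal RNA, without a step that selects polyadenylated RNA. The RNA is described as pooled, and nothing in the labels shows that replicates were independent cultures, so each p-value reflects a spread between libraries that could be purely technical.

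Histones are the proteins around which DNA is wound: H2A, H2B, H3 and H4 form the core of the nucleosome, and H1 binds the linker DNA between cores. Most genes of the HIST clusters are replication-dependent, that is, they are transcribed when DNA is copied in S phase, have no introns, and make mRNA that ends in a stem-loop bound by the protein SLBP in place of a poly(A) tail. Such mRNA is kept in total RNA libraries and largely lost from libraries selected for poly(A). Some members, among them HIST1H1C, HIST1H2BD and HIST2H2BE, can also give polyadenylated transcripts, and counts per gene do not tell these forms apart.

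The promoter of the member with the highest mean CPM (scaled counts, not corrected for gene length) in each class (among members with a RefSeq entry) is shown to make visible the elements that tell the classes apart. Each line gives the 150 bases before the annotated start, 5′ to 3′ on the strand of the gene, from RefSeq on build GRCh38.p14. Capitals mark exact matches, on the plus or the minus strand, to 3 motifs. The core motif that positions transcription starts was searched as TATAAA. The motif bound by NF-Y was searched as CCAAT. The octamer, a site of POU-domain factors, was searched as ATTTGCAT.
HIST1H1C (H1), chr6:26056471-26056620, minus strand: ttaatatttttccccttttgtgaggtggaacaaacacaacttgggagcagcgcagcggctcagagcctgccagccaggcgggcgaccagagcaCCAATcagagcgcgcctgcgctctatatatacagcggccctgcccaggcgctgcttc
HIST1H2AG (H2A), chr6:27132893-27133042, plus strand: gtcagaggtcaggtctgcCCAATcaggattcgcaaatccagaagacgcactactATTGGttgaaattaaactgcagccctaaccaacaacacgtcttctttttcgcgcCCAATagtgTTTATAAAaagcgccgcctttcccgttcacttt
HIST1H2BC (H2B), chr6:26123927-26124076, minus strand: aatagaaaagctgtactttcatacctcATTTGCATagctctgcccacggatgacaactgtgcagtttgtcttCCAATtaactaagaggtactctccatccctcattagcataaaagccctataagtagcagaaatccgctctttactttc
HIST1H3B (H3), chr6:26032100-26032249, minus strand: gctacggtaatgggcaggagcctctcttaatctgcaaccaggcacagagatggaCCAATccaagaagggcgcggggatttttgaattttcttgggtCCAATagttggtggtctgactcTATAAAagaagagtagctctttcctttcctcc
HIST4H4 (H4), chr12:14771132-14771281, minus strand: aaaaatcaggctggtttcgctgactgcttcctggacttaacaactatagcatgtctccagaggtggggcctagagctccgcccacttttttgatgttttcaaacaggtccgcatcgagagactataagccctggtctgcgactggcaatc

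HIST1H3B had TATAAA 32 bases before its start with CCAAT at 54 and 96 bases, and HIST1H2BC had the octamer 123 bases before its start. HIST1H1C had CCAAT alone of the 3 motifs in this stretch, and the stretch of HIST4H4 held none of them. Of the 75 members 65 had a RefSeq promoter entry, with 69 windows of 300 bases in all (250 before to 50 after the start). The octamer was in 15 of 20 H2B windows (75%) and 11 of 16 H2A windows (68.8%), but in 1 of 14 H3 windows (7.14%) and 0 of 6 H1 and 0 of 13 H4 windows, against 1.77% of all 35116 promoters in the table. CCAAT was in all H1, H2A, H2B and H3 windows and in 3 of 13 H4 windows (23.1%), against 34.6% of all promoters. TATAAA was in 46 of the 69 windows (66.7%), against 11.5% of all promoters. These shares describe letters in a window, and windows of H2A and H2B genes that lie head to head overlap, so a single octamer can count for both genes. The 1 H3 window with the octamer belongs to a second start of HIST1H3D and is the same window as that of HIST1H2AD, an H2A gene. The other HIST1H3D window had no octamer.

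Members fell into well-counted genes and genes with almost no reads. In every library 46 of the 75 had at least 1000 counts, and these were 2 H1, 13 H2A, 12 H2B, 8 H3 and 11 H4 genes. HIST3H2BB had between 219 and 342 counts, and 8 members, such as HIST1H2BE and HIST3H2A, had a highest count of at least 25 but under 200. The other 20 had fewer than 25 counts in any library, and HIST1H1B and HIST1H4F had 0 in all of them. The 20 include genes known as testis forms (HIST1H1T, HIST1H2AA, HIST1H2BA and HIST3H3) but also HIST1H1D, HIST1H3E, HIST1H3I and HIST1H4L, with at most 5 counts. Between them stood few genes, as the plot of member counts shows. TATAAA was in 71.7% of the 46 promoter windows of the well-counted members and in 55.6% of the 18 windows of members with fewer than 25 counts, and CCAAT was in 82.6% and 88.9%. RefSeq lists 5 members as pseudogenes (HIST3H2BA, HIST2H2BA, HIST2H2BB, HIST2H2BC and HIST2H2BD), all of them among the poorly counted genes.

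**Figure D1:**
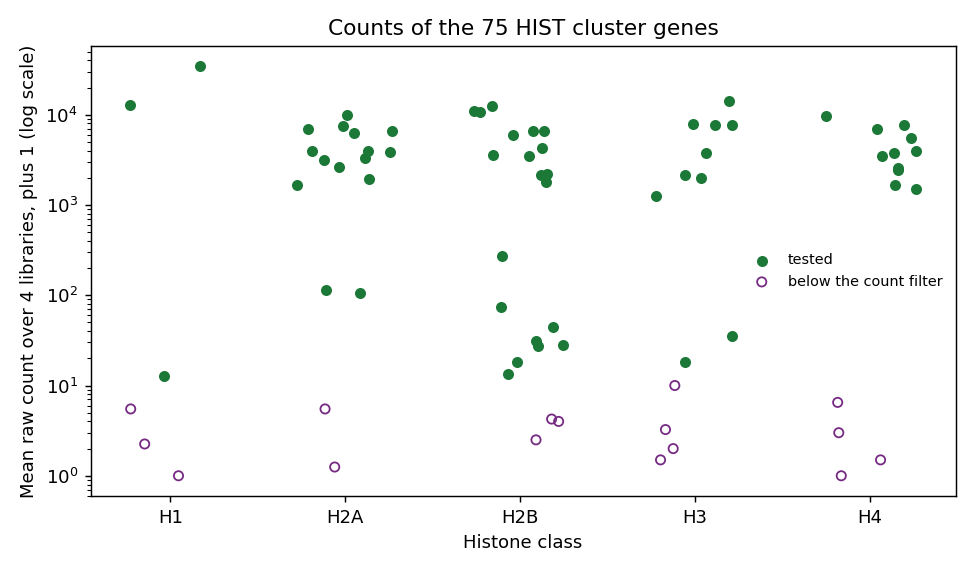
Mean raw count over the 4 libraries, plus 1, on a log axis, for each of the 75 members by histone class (each point is 1 gene, spread sideways at random). Filled points are the 59 members that passed the low-count filter and open points the 16 that did not. The 46 well-counted genes lie at the top and most others lie below 100 counts.

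The members together took 1.01% and 0.981% of all counts in control 1 and control 2, and 1.03% and 1.17% in Rg3 1 and Rg3 2. On the CPM scale (counts scaled to a common library size) their summed level was 9996 and 9925 in the controls, 10065 in Rg3 1 and 11940 in Rg3 2. Rg3 1 was thus close to the controls, and the higher mean with Rg3 (11003 ± 1326 against 9960 ± 50.3 CPM, SD, n = 2) came with Rg3 2. For H4, which pairs with H3 in the core, the summed level was 1703 and 1777 CPM in controls, 1699 in Rg3 1 and 2325 in Rg3 2. H3 read 1666 and 1688, then 1664 and 2067 CPM, and H2A read 2325 and 2179, then 2197 and 2722 CPM. In these 3 core classes Rg3 1 lay at or among the controls and Rg3 2 above both.

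H2B was the exception among the core classes, since both Rg3 libraries were above both controls (2533 and 2514, then 2657 and 3120 CPM). In Rg3 1 this did not hold across the class: of 12 well-counted H2B genes 6 were above both controls and 4 below both. Their median log2 ratio of Rg3 1 to the control mean was 0.01, and HIST2H2BE had the largest, at 0.58. H1 showed the opposite order of the Rg3 libraries, with 1768 and 1767 CPM in controls, 1848 in Rg3 1 and 1706 in Rg3 2. As a share of all histone counts, H1 took 17.7% and 17.8% in controls, 18.4% in Rg3 1 and 14.3% in Rg3 2, and H4 took 17.0%, 17.9%, 16.9% and 19.5% in the same order. The log2 ratio of the group means was 0.21 for H4, 0.19 for H2B, 0.15 for H3, 0.13 for H2A and 0.01 for H1, which turned to −0.02 with upper-quartile scaling. Without Rg3 2 these ratios were −0.03, 0.08, −0.01, −0.03 and 0.07, and without Rg3 1 they were 0.42, 0.31, 0.31, 0.28 and −0.05. No p-value is given for these sums. In bulk RNA a different share of cells in S phase and a different amount of histone RNA per cell cannot be told apart.

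**Figure D2:**
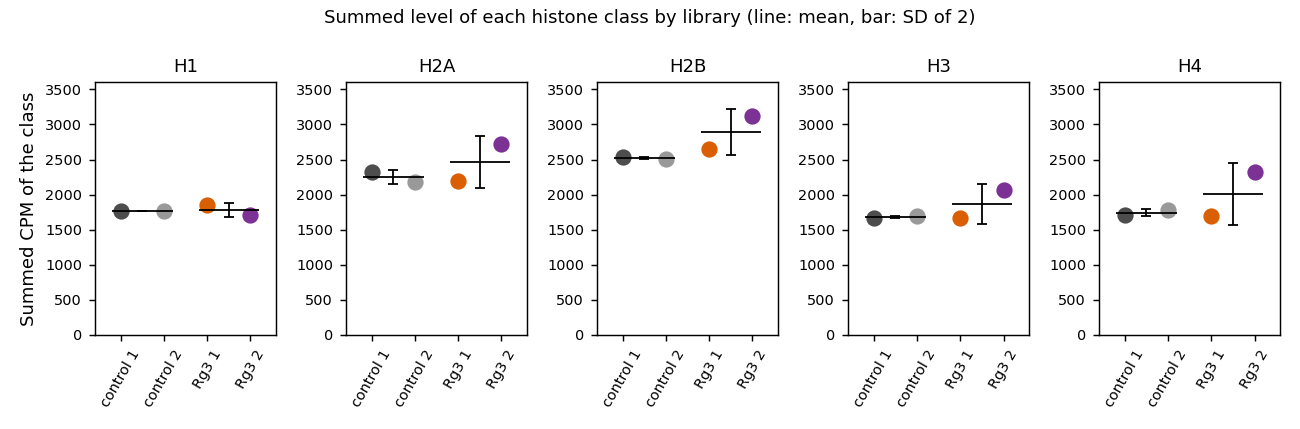
Summed CPM of the H1, H2A, H2B, H3 and H4 members in each of the 4 libraries (points), with the group mean (line) and SD of 2 libraries (bar), on axes that start at 0. Rg3 2 is the highest point in each core class and the lowest in H1, while Rg3 1 stays within or near the controls.

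Of the 75 members 59 passed the low-count filter and were tested together with all other genes, 3 H1, 15 H2A, 20 H2B, 10 H3 and 11 H4 genes. In edgeR's quasi-likelihood test 0 members were called higher and 0 lower at an adjusted p under 0.05, where 0.0306% of all 16323 tested genes were called higher and 0% lower. The smallest adjusted p of a member was 0.72. DESeq2 and limma voom also called 0 members. At an unadjusted p under 0.05 edgeR had 5 members higher (HIST2H2BE, HIST2H3C, HIST1H4C, HIST2H3D and HIST1H4J) and 1 lower (HIST1H2BM), where 1.83% of all tested genes were higher and 2.9% lower by that rule. DESeq2 had 6 higher and 0 lower at that level, and voom had 5 and 1. The shares of all tested genes at that level in DESeq2 and voom are not given. The counts of members in these tools therefore cannot be set against a background.

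The log2 fold change was above 0 for 46 of the 59 tested members (78.0%), against 52.5% of all tested genes and 58.7% of tested genes with a mean of at least 10 CPM. With upper-quartile scaling 40 of the 59 were above 0, and the share of all tested genes under that scaling is not given. The median was 0.15 over the members and 0.01 over all tested genes. By class the median was 0.15 for H4, 0.14 for H3, 0.15 for H2B, 0.15 for H2A and 0.00 for the 3 tested H1 genes. By cluster it was 0.35 over 14 HIST2 genes and 0.08 over 42 HIST1 genes. The HIST2 genes include near-identical copies that can take each other's reads, and the pseudogenes HIST2H2BA, HIST2H2BB and HIST2H2BC. The median log2 ratio of Rg3 1 to Rg3 2 was −0.56 in HIST2 and −0.30 in HIST1. Both Rg3 libraries were above both controls for 16 members (27.1%), where 15.3% of all tested genes had that order. Both were below both controls for 1 member, where 17% of all tested genes had that order. For the other 42 members the groups overlapped.

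Set against each control separately, Rg3 2 was higher for 49 and 52 of the 59 tested members (median log2 ratios 0.35 and 0.30), while Rg3 1 was higher for 27 of 59 against either control (−0.01 and −0.03). Over all tested genes these 4 medians lay between −0.0072 and 0.00069. Among the 46 well-counted members Rg3 2 was above both controls for 39 and below both for 3, and Rg3 1 was above both for 17 and below both for 20. The shares above both controls in Rg3 2 were 84.8% of these members and 50.9% of all 3493 genes counted as deeply. In Rg3 1 they were 37.0% and 38.2%. The shares below both controls, members first, were 6.5% and 35.0% in Rg3 2, and 43.5% and 42.6% in Rg3 1. All 11 well-counted H4 genes were above both controls in Rg3 2, and 3 of them in Rg3 1.

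**Figure D3:**
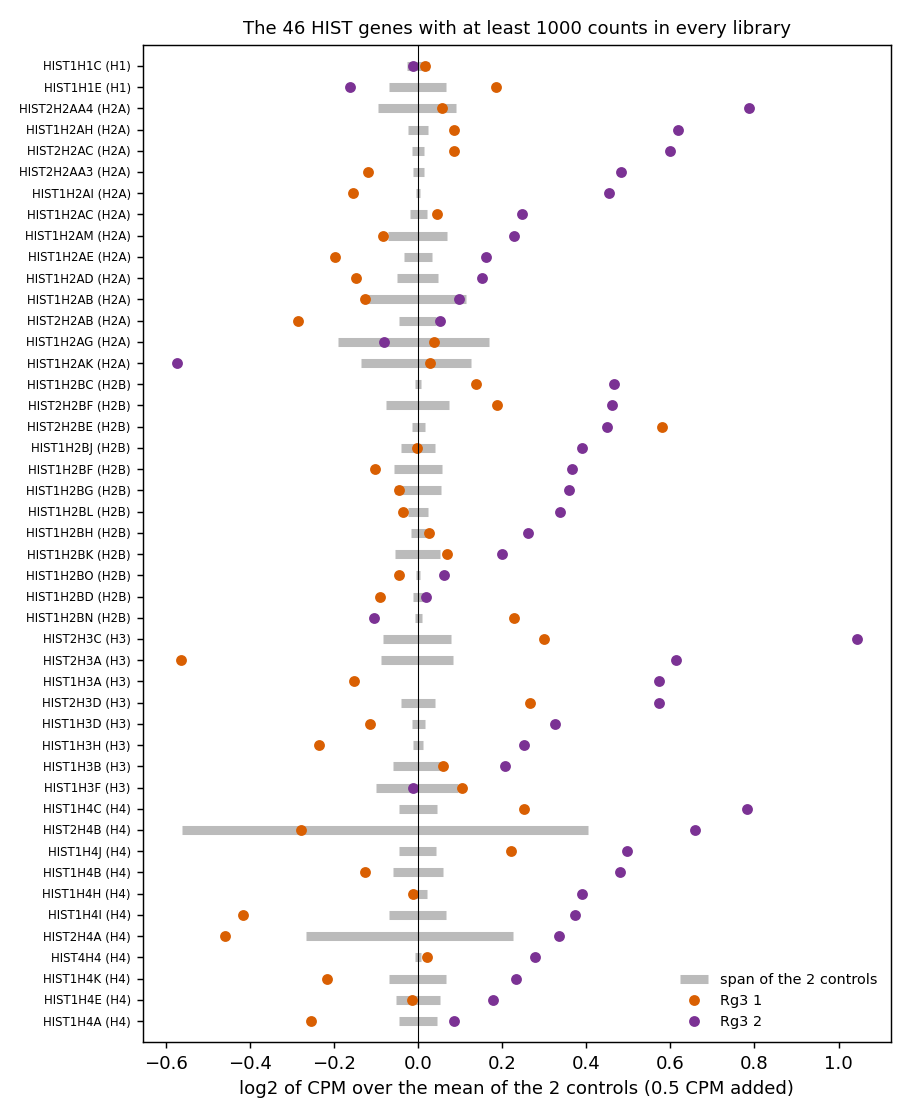
log2 ratio of the CPM of each Rg3 library to the mean of the controls (0.5 CPM added) for the 46 well-counted members, grouped by class from H1 at the top to H4 at the bottom. Grey bars span the 2 controls. Rg3 2 (purple) lies to the right of the grey bar for 39 genes, and Rg3 1 (orange) for 17.

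The count of called members depended on which Rg3 library was kept. Without Rg3 1, edgeR called 16 members higher and 1 lower of 60 tested, where 2.53% of all tested genes were called higher and 2.69% lower. The 16 were HIST1H4B, HIST1H4C, HIST1H4H, HIST1H4J, HIST1H3A, HIST2H3A, HIST2H3C, HIST2H3D, HIST1H2AH, HIST1H2AI, HIST2H2AA3, HIST2H2AA4, HIST2H2AC, HIST1H2BC, HIST2H2BE and HIST2H2BF, and the 1 lower was HIST1H2AK. Without Rg3 2, it called 1 member higher (HIST2H2BE) and 1 lower (HIST2H3A), where 1.8% of all tested genes were called higher and 0.879% lower. HIST2H3A was therefore called in opposite directions by the 2 fits. In both fits the lone Rg3 library is assumed to vary as the controls do. The cause of the difference between the Rg3 libraries was not tested.

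H1 genes bind linker DNA, and HIST1H1C and HIST1H1E were the only H1 genes with more than 20 counts in a library. HIST1H1C read 1317 and 1271 CPM without Rg3, against 1310 and 1284 with it, so that the groups overlapped (log2 fold change 0.00, SE 0.13). HIST1H1E read 450 and 495 CPM in controls, 538 in Rg3 1 and 422 in Rg3 2 (0.02, SE 0.16). The Rg3 libraries of HIST1H1E lay on opposite sides of the controls. With upper-quartile scaling these fold changes became −0.03 and −0.01. HIST1H1A had between 1 and 8 counts and HIST1H1T between 8 and 18 (−0.50, SE 0.55), so that differences in them were not detectable at this depth.

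H2A genes encode the partner of H2B in the nucleosome. HIST2H2AC read 222 and 218 CPM without Rg3, against 234 and 334 with it, above both controls in either library (log2 fold change 0.37, SE 0.19, edgeR adjusted p = 0.999), and its log2 fold change was 0.087 without Rg3 2 and 0.60 without Rg3 1. HIST1H2AG overlapped between the groups, with 427 and 333 CPM without Rg3, against 389 and 359 with it (−0.02, SE 0.16). HIST1H2AC read 251 and 244 CPM, then 255 and 294 (0.15, SE 0.14), with both Rg3 libraries above the controls, and 0.046 without Rg3 2. HIST1H2AK was the 1 well-counted H2A gene below both controls in Rg3 2, where 10 of 13 were above both, with 139 and 116 CPM in controls, 130 in Rg3 1 and 85.4 in Rg3 2 (−0.24, SE 0.21). HIST2H2AB read 63.9 and 68.0 CPM, then 54.0 and 68.4 (−0.11, SE 0.16). Of the 15 tested H2A genes 10 were above 0, and the log2 fold changes ran from −0.24 to 0.47.

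HIST2H2BE, an H2B gene, had the smallest p of all members. It read 181 and 185 CPM without Rg3, against 274 and 250 with it, and the mean with Rg3 was 1.43-fold that of controls (log2 fold change 0.52, SE 0.13, unadjusted p = 0.0053, edgeR adjusted p = 0.72). It was the only well-counted member whose level was higher in Rg3 1 than in Rg3 2 while both stood above the controls. Its log2 fold change was 0.45 without Rg3 1 and 0.58 without Rg3 2, in fits that share the same 2 controls and hold 1 Rg3 library each. HIST2H2BE was not called with all libraries in edgeR, DESeq2 or voom, nor with the other scalings and filters or the replicate block.

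The starts of HIST2H2BE and HIST2H2AC face away from each other with 235 bases between them, which are shown because both genes read above the controls in both Rg3 libraries, as did the head-to-head pair HIST1H2BC and HIST1H2AC. They are written 5′ to 3′ towards HIST2H2BE, on build GRCh38.p14, with capitals as above, and were chosen after the values were seen.
HIST2H2BE to HIST2H2AC, chr1:149886683-149886917, minus strand: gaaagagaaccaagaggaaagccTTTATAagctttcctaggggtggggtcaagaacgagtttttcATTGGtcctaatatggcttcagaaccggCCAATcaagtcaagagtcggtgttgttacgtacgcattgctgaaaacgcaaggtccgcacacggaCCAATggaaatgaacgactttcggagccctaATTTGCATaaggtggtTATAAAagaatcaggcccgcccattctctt

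A TATAAA lies 30 bases before the start of HIST2H2BE, and a reverse copy lies at 212 bases, near the start of HIST2H2AC. The octamer stands 46 bases before the start of HIST2H2BE, next to its TATAAA, and 3 CCAAT matches lie between the outer elements. The matches describe the letters of this stretch and are no evidence of binding in these cells.

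Among the other H2B genes HIST1H2BC read 430 and 426 CPM without Rg3, against 471 and 591 with it, above both controls in either library (0.31, SE 0.16, and 0.14 without Rg3 2). HIST1H2BK read 416 and 386, then 421 and 460 CPM (0.14, SE 0.14, and 0.071 without Rg3 2), also without overlap. HIST1H2BJ read 386 and 365, then 374 and 492 CPM (0.21, SE 0.17), and HIST1H2BF 227 and 246, then 220 and 305 CPM (0.15, SE 0.18). In these 2 genes Rg3 1 was not above both controls and Rg3 2 was. HIST1H2BM, with counts of 23 and 24 without Rg3, against 13 and 8 with it, had the lowest fold change of any member (−1.26, SE 0.41, unadjusted p = 0.017, adjusted p = 0.95). It reached the filter through its control counts, so its order of the groups is no support for a change. HIST2H2BA, a pseudogene in RefSeq, had 57 and 34 counts, then 45 and 38 (−0.24, SE 0.37).

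H3 genes encode the core histone whose tail carries many of the known methylation and acetylation marks. All 10 tested H3 genes were above 0, from 0.00 to 0.72, and 4 had both Rg3 libraries above both controls, against 52.5% and 15.3% of all tested genes. The lowest, HIST1H3C, had a log2 fold change of 0.0024 and between 11 and 22 counts. In Rg3 1 the 8 well-counted H3 genes were split, with 4 above both controls and 4 below both. HIST2H3D read 124 and 117 CPM without Rg3, against 145 and 180 with it (0.43, SE 0.15, unadjusted p = 0.024). HIST2H3C read 58.7 and 65.7 CPM, then 76.6 and 129 (0.72, SE 0.24, unadjusted p = 0.017, edgeR adjusted p = 0.95). In both genes Rg3 2 stood further from the controls than Rg3 1. When edgeR was run on all rows, unfiltered, HIST2H3C was the 1 member called (adjusted p = 0.0029), where 0.351% of all 25668 genes in that fit were called higher and 0.483% lower. It was also the 1 member called with the replicate number as a block (adjusted p = 0.015), where 0.423% of all tested genes were called higher and 0.527% lower. A single call among 73 or 59 members is too few to be told apart from these shares. Its log2 fold change was 0.30 without Rg3 2 and 1.05 without Rg3 1, and that of HIST2H3D was 0.27 and 0.58.

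The 4 H3 genes with the highest mean CPM were all in the HIST1 cluster and differed less. HIST1H3B read 486 and 528 CPM without Rg3, against 528 and 585 with it, and Rg3 1 was level with control 2 (0.14, SE 0.14, and 0.061 without Rg3 2). HIST1H3F read 309 and 269, then 310 and 286 CPM (0.05, SE 0.14). HIST1H3H read 290 and 295, then 249 and 349 CPM (0.03, SE 0.18), and HIST1H3D read 283 and 289, then 264 and 359 CPM (0.12, SE 0.17). For HIST1H3H and HIST1H3D the Rg3 libraries lay on opposite sides of the controls.

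H4 genes of the clusters make nearly the same protein from different mRNA. HIST1H4C read 231 and 246 CPM without Rg3, against 284 and 411 with it (0.54, SE 0.19, unadjusted p = 0.023, edgeR adjusted p = 0.999). HIST1H4J read 120 and 113, then 136 and 165 CPM (0.37, SE 0.15, unadjusted p = 0.040). Both genes had Rg3 1 and Rg3 2 above the controls, as did HIST4H4, at 344 and 348, then 351 and 419 CPM (0.15, SE 0.15). HIST1H4B read 238 and 259, then 227 and 346 CPM (0.21, SE 0.21), and HIST1H4E read 198 and 213, then 203 and 233 CPM (0.08, SE 0.14). In these last genes Rg3 2 alone was above both controls. Without Rg3 2 the log2 fold change was 0.25 for HIST1H4C, 0.22 for HIST1H4J and 0.022 for HIST4H4, and without Rg3 1 it was 0.79, 0.50 and 0.28.

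**Figure D4:**
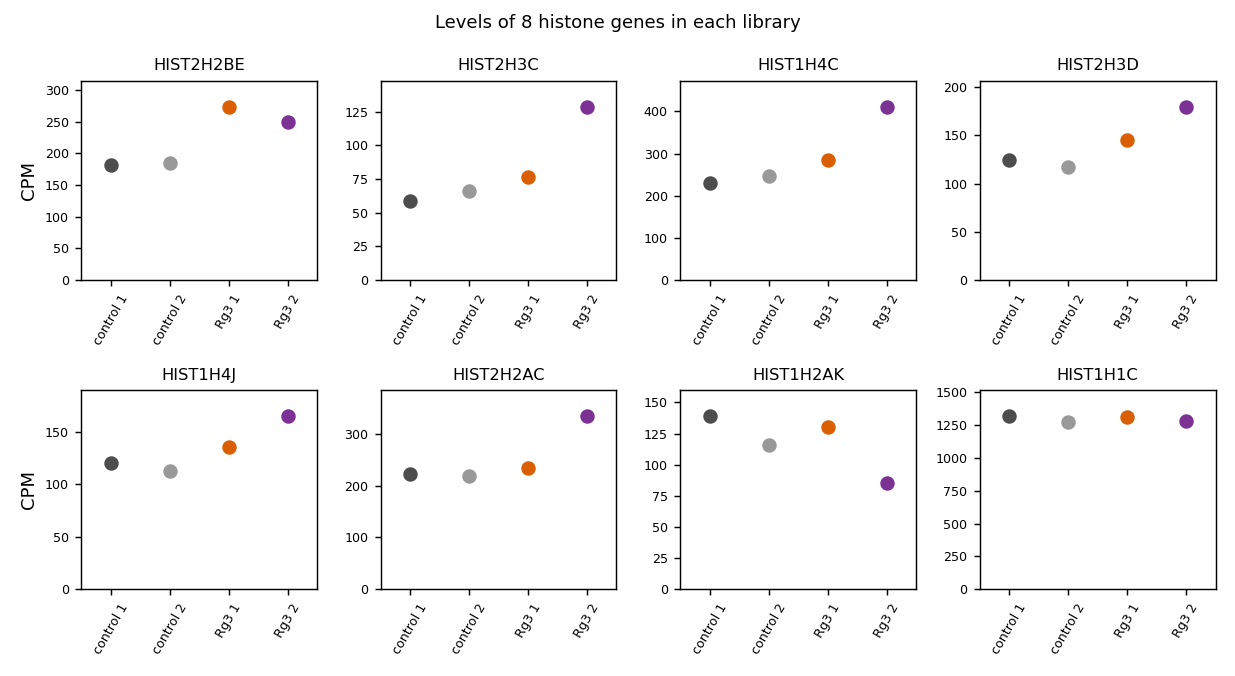
CPM of 8 members in each library, on axes that start at 0: the 5 members with the smallest p among those higher with Rg3, HIST2H2AC, HIST1H2AK and HIST1H1C. HIST2H2BE is the panel in which Rg3 1 is the highest point, HIST1H2AK the one in which Rg3 2 is the lowest, and HIST1H1C is level.

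Near-identical copies in the HIST2 cluster can take each other's reads, and the way reads with several matches were counted is not given in the sources used here. HIST2H4A and HIST2H4B held 2689 and 1494 reads in control 1, against 2046 and 3142 in control 2, so HIST2H4A took 64.3% of the reads of this pair in one control and 39.4% in the other. Their log2 fold changes (−0.01 and 0.27) therefore say little about a single copy. Summed, the pair read 170 and 196 CPM without Rg3, against 142 and 260 with it, with the Rg3 libraries on either side of the controls. HIST2H2AA3 and HIST2H2AA4 summed to 387 and 399 CPM without Rg3, against 377 and 592 with it, and their own log2 fold changes were 0.21 (SE 0.20) and 0.47 (SE 0.23), the latter 0.059 without Rg3 2 and 0.79 without Rg3 1. HIST2H3A and HIST2H3C summed to 127 and 143 CPM, then 126 and 240. HIST2H3A took 53.8% and 54.0% of the reads of its pair in controls but 39.0% and 46.4% with Rg3, so in Rg3 1 the level of HIST2H3C above the controls came beside a HIST2H3A level below them (68.3 and 77.0 CPM in controls, 49.0 in Rg3 1 and 111 in Rg3 2). As sums, all 3 pairs had Rg3 1 below both controls and Rg3 2 above both. With HIST2H3D added to HIST2H3A and HIST2H3C, the sum was 251 and 260 CPM in controls, 271 in Rg3 1 and 420 in Rg3 2. For this trio both Rg3 libraries were thus above both controls. Gene models also overlap for HIST1H4I with HIST1H2BK, for HIST1H2AD with HIST1H3D, and for HIST2H2AA4, HIST2H2BC and HIST2H3A with HIST2H4B, and their values share this limit.

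Many H2A and H2B genes lie head to head and are transcribed away from a shared stretch of DNA. Each RefSeq start of a member was set only against the next start along the chromosome. By this rule 12 neighbouring member pairs had starts at most 1000 bases apart and facing away from each other. Of these, 10 joined an H2A with an H2B gene. Both genes had at least 1000 counts in every library in 9 pairs, such as HIST1H2BC with HIST1H2AC and HIST1H2BJ with HIST1H2AG. Both were under 200 counts in 2 pairs, HIST1H2AA with HIST1H2BA and HIST1H2AJ with HIST1H2BM. In the last pair, HIST3H2A with HIST3H2BB, the genes had 92 to 151 and 219 to 342 counts. No pair joined a gene of at least 1000 counts to one under 200. The log2 fold changes had the same sign in 7 of the 11 pairs with both genes tested. The rule missed HIST1H2AD with HIST1H2BF, also an H2A and an H2B gene head to head. A second RefSeq start of HIST1H3D has the same window as HIST1H2AD, and HIST1H2BF was paired with HIST1H3D instead. HIST1H2AD had 2549 to 2778 counts and a log2 fold change of 0.0084, against 5590 to 7337 counts and 0.15 for HIST1H2BF. The counts of pairs given here leave this pair out.

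Genes that make, process and carry histones were followed in the same fit. None of the 90 tested genes on these lists was called in edgeR, DESeq2 or voom, and 1 was higher and 0 lower at an unadjusted p under 0.05 in edgeR, where 1.83% of all tested genes were higher and 2.9% lower, so that a count of 1 does not stand out. Of 24 genes of histone mRNA processing and turnover 18 were above 0, with a median log2 fold change of 0.08, and SNRPF, a core protein of small nuclear ribonucleoproteins, was that gene (0.39, unadjusted p = 0.045). SLBP, which binds the stem-loop, read 73.3 and 81.6 CPM without Rg3, against 65.8 and 88.5 with it (−0.01). SLBP was lower in Rg3 1 than in Rg3 2, as were 50 of the 59 tested HIST members and 8336 of all 16323 tested genes. Other genes of the same list, such as LSM10, SYMPK, CPSF1 and UPF1, had the other order. LSM10 and LSM11, proteins of the U7 particle that cuts histone pre-mRNA, had log2 fold changes of 0.32 and 0.05, and CASP8AP2, which acts with them, had −0.13. Of 10 genes of histone gene transcription 6 were above 0 (median 0.08), and NPAT, the coactivator of histone genes, read 31.3 and 31.4, then 26.5 and 32.1 CPM.

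Histones listed as replication-independent are mostly made outside S phase too, and most carry poly(A) tails. They were above 0 in 8 of 12 tested cases, with a median of 0.01. H3F3B, a gene of a replacement H3 variant, read 187 and 188 CPM without Rg3, against 217 and 222 with it (0.22, edgeR adjusted p = 0.999), with close Rg3 libraries. H2AFZ, the H2A.Z gene, read 254 and 277, then 251 and 344 CPM, with Rg3 2 the highest. H3F3A had −0.31, H2AFX −0.05, H1F0 0.01 and H1FX −0.13. Histone chaperones had 14 of 21 above 0 (median 0.05), among them NASP (0.05), while ASF1B had −0.17 and CHAF1A −0.11. S phase genes had 17 of 28 above 0 and a median of 0.01. PCNA, the sliding clamp of DNA polymerase, read 144 and 150, then 143 and 162 CPM, and CCNE2, a cyclin of S phase entry, had 0.06.

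The median of Rg3 1 minus Rg3 2 on the log2 scale was −0.33 over the tested HIST members and −0.11 over the S phase genes, −0.18 over histone mRNA processing, −0.06 over histone gene transcription, −0.08 over replication-independent histones, 0.01 over chaperones and −0.01 over all tested genes. Control 1 minus control 2 had a median of −0.01 over the members. The lists share 5 genes, such as MCM2 and SLBP, and their part in the difference between the Rg3 libraries was not tested.

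The libraries held 24482846 and 26731913 counts in controls and 30132517 and 24571619 in Rg3 1 and Rg3 2, and rows of small and mitochondrial RNA names took 24.4% to 26.9% of them, with the lowest share in Rg3 1. Of 6 markers set for the cell line, KRT8 and KRT18 were between 1557 and 2817 CPM and ERBB2 between 45.2 and 53.5 CPM, while PAX8 and MUC16 stayed below 2 CPM and KRT19 was at or near 0. These 6 summed to 4376 and 5334 CPM in controls and to 3365 in Rg3 1 and 4586 in Rg3 2. Of 7 markers of other cells, CD3E was at 0 in every library and PTPRC, PECAM1, VWF and DCN were below 1 CPM. CD68 read 21.3 and 16.7 CPM in controls and 17.3 and 10.5 with Rg3, and COL1A1 lay between 1.62 and 4.67 CPM. These 7 markers summed to 24.5 and 20.2 CPM in controls and 22.9 and 12.5 with Rg3.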

How the data were processed

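The deposited table gives raw read counts per gene symbol, which the authors had not normalised. The genome build was GRCh37, per the submitters' processing notes, and the aligner, counting tool, annotation and strand setting are not given in the sources used here. Sequencers of different makers are named in the design text and the protocol, and which was used was not settled. Members and gene lists were chosen with earlier results of these data known. Genes were kept by filterByExpr (minimum count 10, minimum total 15), scaled by TMM and tested with edgeR 4.0.16 in R 4.3.3 (quasi-likelihood, treatment as the only term, 2 residual degrees of freedom), with Benjamini-Hochberg adjustment over all 16323 tested genes. CPM values use the TMM-scaled library sizes. DESeq2 1.42.0, limma 3.58.1 (voom), other scalings and filters, a replicate block and leaving out each library were the alternatives. CPM does not correct for gene length, so its ranks served only to choose members, and differences are compared within a gene or a class sum.

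Named members were up to 4 per class with the highest mean CPM, the 5 tested members with the smallest p in each direction, and the HIST2 copies. Members named beyond these were chosen after their values were seen. Older HIST names were matched to RefSeq symbols (75 of 75), and the RefSeq table of a newer build served for names, neighbours and promoter sequences only. With 2 libraries per group an exact permutation test of a single gene could not pass 0.05, so p-values come from the fit across all genes.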

Additional observations from a re-analysis of the deposited data

How the results depend on the processing

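The count of called members, 0 in edgeR, stayed 0 with DESeq2, voom, upper-quartile scaling and a filter of 1 CPM in 2 libraries, was 1 without a low-count filter (HIST2H3C, with 214 genes or 0.834% called in all), and ran from 0 to 17 over the fits that leave out 1 library. Of all genes 884 (5.22%) were called without Rg3 1, 457 (2.68%) without Rg3 2 and 5 with every library. With the replicate number as a block it was 1 (HIST2H3C) and 155 genes (0.95%) were called in all. The numbers are not known to pair the samples: deviations of the libraries numbered 1 correlated at 0.213 across 16323 genes, with 2 pairs. The count of called partner genes was 0 in each of these settings except without a library, where it ran from 0 to 4 (TRRAP, SNRPG and CCNA2 without Rg3 1, and LSM10, CPSF1, TRRAP and H3F3A without Rg3 2), near the shares of all genes just given. Leaving out 1 library, the log2 ratio of the class sums ran from −0.047 to 0.065 for H1, −0.034 to 0.28 for H2A, 0.075 to 0.31 for H2B, −0.0096 to 0.31 for H3, −0.033 to 0.42 for H4 and 0.016 to 0.27 for all members, and the other scalings of these sums moved them by less than the spread between replicates. HIST1H1C turned to −0.026 with upper-quartile scaling and −0.0021 with the 1 CPM filter, and HIST1H1E to −0.0077 with upper-quartile scaling. Over the fits without 1 library the sign of 18 named members turned, with log2 fold changes of −0.021 to 0.039 for HIST1H1C, −0.16 to 0.19 for HIST1H1E, −1.004 to 0.027 for HIST1H1T, −0.19 to 0.18 for HIST1H2AG, −0.12 to 0.49 for HIST2H2AA3, −0.0021 to 0.39 for HIST1H2BJ; −0.10 to 0.37 for HIST1H2BF, −0.11 to 0.33 for HIST1H3D, −0.24 to 0.26 for HIST1H3H, −0.046 to 0.16 for HIST1H3F, −0.13 to 0.48 for HIST1H4B, −0.015 to 0.18 for HIST1H4E; −0.57 to 0.031 for HIST1H2AK, −0.29 to 0.056 for HIST2H2AB, −0.60 to 0.25 for HIST2H2BA, −0.46 to 0.34 for HIST2H4A, −0.28 to 0.83 for HIST2H4B, −0.57 to 0.62 for HIST2H3A. The cause was not tested. Counts under 25 in 20 members limit what could be detected in them.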

Other observations

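HIST1H4A and HIST2H2AB, genes of different classes on different chromosomes, had the same raw counts in both Rg3 libraries, 1663 in Rg3 1 and 1648 in Rg3 2. In controls they differed, with 1539 and 1758 counts for HIST1H4A and 1575 and 1797 for HIST2H2AB. Among the 3718 genes with at least 1000 counts in both Rg3 libraries, 2 pairs had equal counts in both, and the other was C14orf1 with FAM134C at 1417 and 1035 counts.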
